A study of Homo sapiens with 4 samples.

Results

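The well-expressed ZNF genes, which encode zinc finger proteins, were described in 4 RNA-seq libraries of cells labelled HepG2, an established human hepatic cancer line. Members were the protein-coding genes whose symbol is ZNF followed by digits, with an optional final letter. They were selected on expression, by a count of at least 100 in each of the 4 libraries. This gave 118 genes out of 432 such ZNF genes listed in all 4 tables, and out of 8090 genes of any kind that met the same minimum. The remaining 7972 genes at the minimum served as the comparison. The libraries were vector (cells given the empty vector), the library labelled JFK (cells given a FLAG-JFK plasmid, JFK being an older name of the F-box gene FBXO42), control siRNA, and ING5 siRNA, which targets a subunit of histone acetyltransferase complexes. Each group was 1 library, so no difference has a replicate check and no test between groups was possible. Folds are log2 ratios of scaled counts within a pair, and each interval beside one is its exact 95% Clopper-Pearson interval, which covers counting error only.

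Zinc fingers of the C2H2 type are short loops held by a zinc ion between a pair of cysteines and a pair of histidines, and several in a row can read a stretch of DNA. Many ZNF proteins also carry a KRAB box near their amino end, which recruits the scaffold TRIM28 and, through it, the histone methyltransferase SETDB1 and HP1 proteins, and this machinery is known for silencing transposable elements. Others carry a SCAN box, through which these proteins pair with each other, or no such box. The symbol also covers proteins with 1 or a few fingers that act in translation, RNA processing or cell division and not as DNA-binding repressors.

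Total counts ran from 7179479 in vector to 9196979 in control siRNA. FBXO42 did not stand higher where the plasmid was given, with 115 counts against 116 under the empty vector, and that library is named by its label throughout. ING5 stood at 144 counts in control siRNA and 81 in ING5 siRNA (log2 fold −0.81, interval −1.23 to −0.41). Of 9 hepatocyte markers sought, 6 had a value in at least 1 table, and their summed counts were 71.1 and 93.4 in the vector pair, and 90 and 103 in the siRNA pair, control first. SERPINA1 had at most 7 counts, APOA1 at most 2, APOB and AFP at most 1, FGB 7 to 15.4 and HNF4A 51 to 91, while ALB, TTR and TF had no value to analyse here. The secretory transcripts APOA1, APOB, AFP and SERPINA1, usual in HepG2, were thus at or near 0, so these markers go against the HepG2 label, and the identity of the cells could not be checked further. Of 5 breast or basal epithelium markers, KRT17 had 20990 and 27539 counts in the vector pair and 2704 and 2299 in the siRNA pair, while KRT14 had 1 to 11.8, KRT5 at most 1, GATA3 12 to 28 and ESR1 1 to 18. Of 3 endothelium markers, CDH5 had 995 and 1132 counts in the vector pair, 224 in control siRNA and 87 in ING5 siRNA, while PECAM1 had 16 to 42.8 and VWF 1 to 12. The 5 fibroblast markers summed to 533, 560, 838 and 798 counts and differed in direction under ING5 siRNA: DCN had 37 against 74 and LUM 232 against 294, COL3A1 352 against 278, COL1A1 177 against 190 and COL1A2 0 against 2. Of the leukocyte markers, LYZ had 115, 72.2, 13 and 13 counts and PTPRC 1 to 8. The part of all these markers in the members' folds was not tested. In bulk RNA, fewer cells of a type and less RNA per cell cannot be told apart.

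Upstream sequences are shown for 5 members at the ends of the fold distributions described further on: ZNF326, the member farthest down under ING5 siRNA, ZNF195, ZNF33A and ZNF532, which were low in both pairs, and ZNF367, the member farthest up under ING5 siRNA. Each is the 250 bases before the RefSeq start in GRCh38.p14, read 5′ to 3′ on the gene's strand. The windows are chr1:89994860-89995109, plus strand for ZNF326, chr11:3379147-3379396, minus strand for ZNF195, chr10:38010425-38010674, plus strand for ZNF33A, chr18:58862674-58862923, plus strand for ZNF532 and chr9:96418371-96418620, minus strand for ZNF367. Capitals mark letters that match a searched motif on either strand. The GC box was searched as GGGCGG. The CCAAT box was searched by those letters. The core of ETS factor sites was searched as CCGGAAG, and the palindromic NRF1 core was searched too. None of the 5 windows holds the last.
ZNF326: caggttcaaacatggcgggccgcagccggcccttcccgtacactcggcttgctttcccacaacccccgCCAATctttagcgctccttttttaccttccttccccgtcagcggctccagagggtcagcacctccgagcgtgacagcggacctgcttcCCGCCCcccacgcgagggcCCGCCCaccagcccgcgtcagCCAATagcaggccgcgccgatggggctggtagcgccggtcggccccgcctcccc
ZNF195: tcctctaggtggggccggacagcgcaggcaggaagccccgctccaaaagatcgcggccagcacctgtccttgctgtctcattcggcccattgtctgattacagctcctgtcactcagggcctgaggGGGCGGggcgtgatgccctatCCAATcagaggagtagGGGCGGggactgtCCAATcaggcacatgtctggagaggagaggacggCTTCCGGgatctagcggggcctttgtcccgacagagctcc
ZNF33A: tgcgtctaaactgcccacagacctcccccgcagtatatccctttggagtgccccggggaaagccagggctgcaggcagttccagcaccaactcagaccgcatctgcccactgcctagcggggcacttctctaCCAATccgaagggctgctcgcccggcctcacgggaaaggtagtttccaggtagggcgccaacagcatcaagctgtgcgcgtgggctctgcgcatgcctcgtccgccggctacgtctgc
ZNF532: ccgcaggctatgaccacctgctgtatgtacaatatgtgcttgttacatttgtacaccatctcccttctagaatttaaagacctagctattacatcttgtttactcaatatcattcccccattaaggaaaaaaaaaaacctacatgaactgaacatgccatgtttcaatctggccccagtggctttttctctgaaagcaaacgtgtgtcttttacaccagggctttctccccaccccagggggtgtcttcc
ZNF367: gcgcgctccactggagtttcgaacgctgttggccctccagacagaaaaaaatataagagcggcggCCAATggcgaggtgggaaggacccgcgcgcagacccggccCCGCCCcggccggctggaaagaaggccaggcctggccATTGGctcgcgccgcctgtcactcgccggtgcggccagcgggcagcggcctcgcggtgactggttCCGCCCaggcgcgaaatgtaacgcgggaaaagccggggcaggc
ZNF326, ZNF195 and ZNF367 each held 2 GC boxes and 2 CCAAT matches, and ZNF195 also 1 ETS match. ZNF33A held 1 CCAAT match, and ZNF532 held none of the 4. The CpG count was 25 in ZNF326, 13 in ZNF195, 17 in ZNF33A, 2 in ZNF532 and 30 in ZNF367. Over the 103 members with a RefSeq window, the GC box was present in 61.2%, CCAAT in 31.1%, the ETS core in 27.2% and the NRF1 core in 3.88%. The same shares were 70.0%, 35.4%, 18.4% and 2.32% in 6670 other genes at the count minimum, and 42.3%, 33.0%, 8.82% and 1.13% in all 27305 windows of this length. A match is a description of letters in this window and not a binding site.

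The members were modestly expressed. Their median level per kilobase was 7.67 FPKM in vector, 7.52 FPKM in the library labelled JFK, 7.60 RPKM in control siRNA and 7.44 RPKM in ING5 siRNA, where the other genes at the minimum had medians of 18.1 to 19.3. The 118 genes together took 0.498%, 0.479%, 0.606% and 0.599% of the counts in these libraries. Of the ZNF genes listed in all tables, 27.3% met the minimum, against 57.5% of 13637 other protein-coding genes. Just inside it were ZNF74 (lowest count 101), ZNF81 (101) and ZNF589 (102), and just outside ZNF473 (99), ZNF529 (98.1) and ZNF566 (95.8). The minimum in every library also leaves out ZNF genes that drop under it in 1 library.

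3 members, ZNF207, ZNF131 and ZNF622, none with a KRAB box, were among the 5 with the highest level in each library. ZNF207, a spindle assembly factor that binds a checkpoint protein, had 112.9 FPKM in vector, 105.5 FPKM in the library labelled JFK, 109.3 RPKM in control siRNA and 89.9 RPKM in ING5 siRNA. ZNF131, a factor with a BTB domain, had 41.9 and 34.8 FPKM in the vector pair and 100.1 and 100.8 RPKM in the siRNA pair. ZNF622, a factor of large ribosomal subunit maturation, had 79.6 and 90.2 FPKM in the vector pair and 41.4 and 44.5 RPKM in the siRNA pair. The tables of the 2 pairs were normalised separately, so levels across pairs stand side by side only, and the next places differed between them. ZNF664, whose protein consists largely of fingers, had 29.96 and 26.11 FPKM in the vector pair and 65.5 and 64.9 RPKM in the siRNA pair. ZNF146, of the same build, had 18.75 and 15.43 FPKM and 39.6 and 45.1 RPKM. In the vector pair ZNF768, at 31.55 and 36.25 FPKM, and ZNF410, at 31.46 and 30.5 FPKM, both chosen after their values were seen, stood above these 2.

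A search of the longest coding transcript of each member, translated, found a KRAB box in 51. A box held only by another transcript, or one that falls short in the search, would be missed. A short pattern, which can miss some, found a SCAN box in 8, of which 5 held both. The number of fingers ran from 0 to 35 with a median of 8.5, and was 12 in members with a KRAB box and 7 in those without. ZNF142 had 35 matches, ZNF646 31 and ZNF268 25, while ZNF330, a nucleolar protein, and ZNF839 had none of the classical spacing. Transcripts of members were long and poor in G and C: the median GC content was 45.7% against 48.3% in other genes, and the median length after the coding part was 1508 against 1068 bases. In 49 of the 118, or 41.5%, at least 1 count of the vector pair was not whole, which happens where a read is shared out over several genes, against 29.1% of other genes. Among the genes named, this holds for ZNF195, ZNF33A, ZNF639, ZNF507, ZNF714, ZNF81, ZNF689, ZNF84, ZNF74, ZNF302, ZNF12, ZNF783, ZNF398, ZNF282, ZNF746, ZNF197, ZNF276, ZNF410, ZNF589, ZNF664 and ZNF839, whose counts are uncertain to that extent. The median fold in the library labelled JFK was −0.10 for the 49 and −0.01 for the 69 with whole counts. For other genes it was −0.04 with divided and 0.02 with whole counts. Median GC content was 43.2% for the 49 and 49.1% for the 69, and 46.5% and 49.5% in other genes. The part of GC content in this gap was not tested.

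The first comparison, of the FLAG-JFK plasmid with the empty vector, asks whether ZNF transcripts differ with the plasmid. No member was 1.5-fold apart in either direction, where 0.401% of the other genes were at least 1.5-fold lower and 0.0376% at least 1.5-fold higher. The members' folds ran from −0.53 to 0.50 on the log2 scale with a median of −0.04, against a median of 0.00 over the other genes. Of the 118, 73 lay below 0, or 61.9%, where 49.8% of other genes did. Intervals lay wholly below 0 for 15 members and wholly above 0 for 12, which is 12.7% and 10.2%, beside 13.6% and 17.3% of the other genes. The members have fewer counts than the others (median 225 against 431 in vector), so their intervals are wider. The SD of the members' log2 folds was 0.20, where counting error alone gives 0.14, and that of the other genes was 0.19, where it gives 0.11.

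Lowest in the library labelled JFK was ZNF532 (Entrez Gene 55205), a chromatin-associated finger protein, with 158 counts against 232 in vector (log2 fold −0.53, interval −0.83 to −0.23). ZNF195, a KRAB protein (Entrez Gene 7748), had 349 against 498 (−0.49, interval −0.69 to −0.29). The KRAB gene ZNF41 had 162 against 226 (−0.45). Each of the 3 was lower by more than counting error allows. ZNF639 (221 against 305), ZNF507 (125 against 173), ZNF33A (167 against 231), ZNF81 (101 against 136) and ZNF714 (234 against 305) completed the 8 lowest, with folds of −0.44 to −0.36.

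At the upper end stood ZNF385A (Entrez Gene 25946), a p53-induced RNA-binding protein, with 236 counts against 169 (0.50, interval 0.21 to 0.80). The KRAB gene ZNF689 had 340 against 266 (0.38, interval 0.14 to 0.62). ZNF687, a partner of ZMYND8 in chromatin complexes, had 726 against 592 (0.32, interval 0.16 to 0.48). Their counts were higher in the library labelled JFK beyond counting error. ZNF84 (154 against 122), ZNF646 (440 against 357), ZNF710 (202 against 164) and ZNF219 (235 against 194) had folds of 0.30 to 0.35. The ubiquitin ligase gene ZNF598, which marks collided ribosomes, had 732 against 619 (0.27, interval 0.11 to 0.42).

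**Figure D1:**
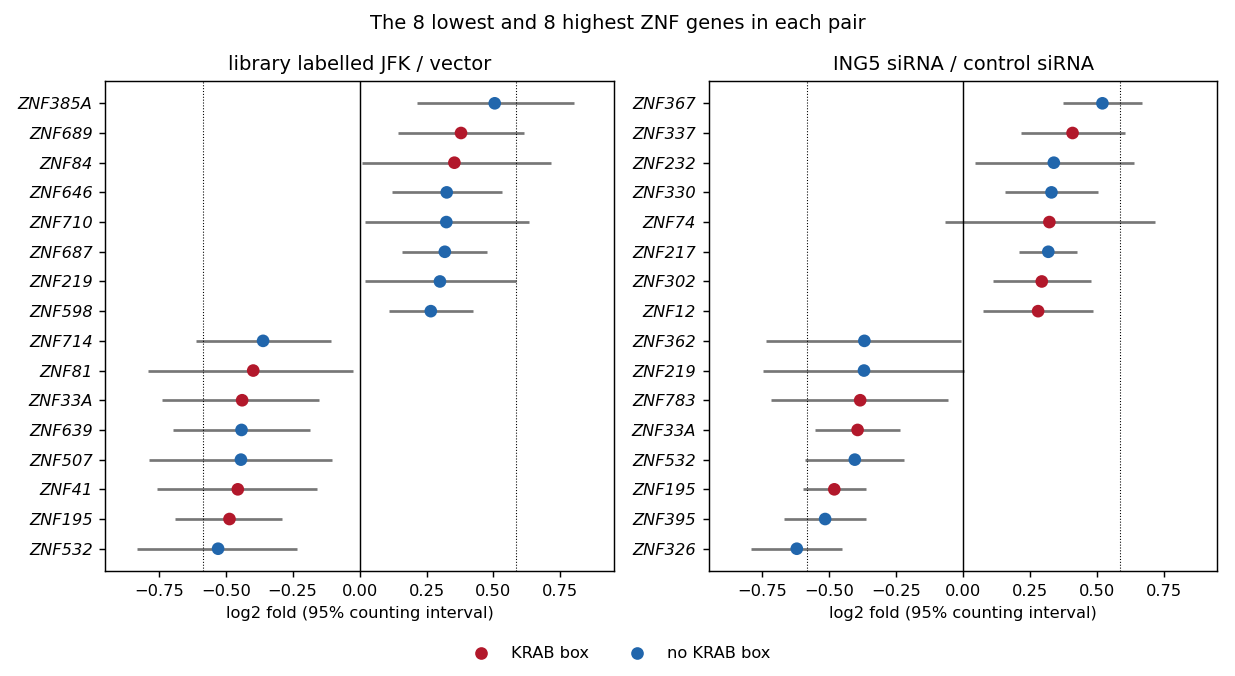
The 8 lowest and 8 highest ZNF genes in each pair, as log2 folds on the horizontal axis (points) with exact 95% counting intervals (bars), red with and blue without a KRAB box. Dotted lines mark 1.5-fold. Only ZNF326, at −0.62 under ING5 siRNA, lies past a dotted line.

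The fold in this pair moved with the base composition of the transcript. Of the 56 members with a GC content of at most 45%, 44 lay below 0 in the library labelled JFK, and of the 28 above 55%, 23 lay above 0. The 8 lowest members had GC contents of 37.5 to 45.6% (median 41.1%), and the 8 highest a median of 61.2%, with ZNF84 the exception at 39.6%. Other genes showed the same gradient: 81.0% of those at or under 45% lay below 0, and 14.4% of those above 55%. Across genes, which share the libraries and are not replicates, Spearman's rho between GC content and fold was 0.53 for the 118 members (Pearson's r 0.56) and 0.63 for 7946 other genes (r 0.59).

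Set against other genes of like GC content, the members' shift in the library labelled JFK was small. Within bands of GC content the members' median minus that of other genes was 0.02 at or under 40% (19 members), −0.03 from 40 to 45% (37 members), −0.07 from 45 to 50% (20 members), −0.05 from 50 to 55% and from 55 to 60% (14 members each), and 0.03 above 60% (14 members). Over all members the median fold relative to their own band was −0.03, where without bands the difference from other genes was −0.04. Relative to their band 71 of the 118 members lay below 0, where 73 had a fold below 0 without bands. Limiting the other genes to the members' range of mean count gave −0.02. The 3 nuclear RNAs at the minimum, of 4 sought, were also low in this library, at −0.40 for MALAT1, −0.35 for NEAT1 and −0.39 for KCNQ1OT1, and their part in the members' folds was not tested.

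**Figure D2:**
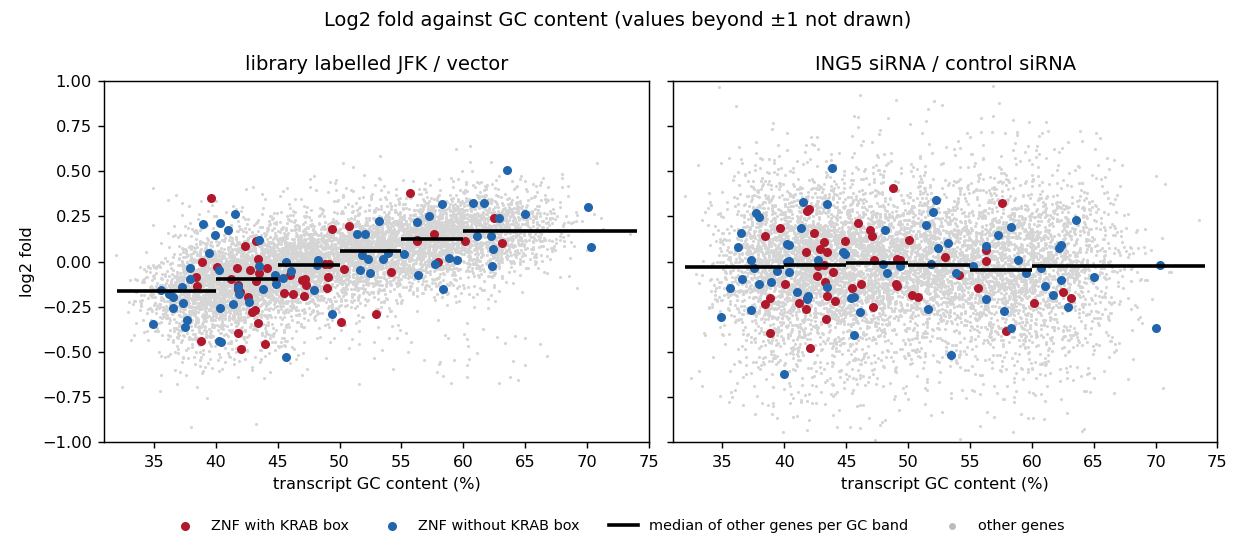
Log2 fold (vertical axis) against transcript GC content in percent (horizontal axis) for ZNF genes (red with KRAB box, blue without) and other genes (grey), with black bars at the median of other genes in each GC band. In the library labelled JFK the bars climb from −0.16 to 0.17 and the ZNF genes climb with them. Their medians lie below the bars in the bands from 40 to 60% and above them in the end bands. Under ING5 siRNA the bars stay between −0.04 and −0.01.

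The siRNA pair asks which ZNF transcripts differ when ING5 is targeted. Of the 118 members 1 was at least 1.5-fold lower and none at least 1.5-fold higher, where 3.02% of the other genes were lower and 1.23% higher by that much. The median fold was −0.04 against −0.02 over the other genes, and 68 members lay below 0, or 57.6%, where 54.0% of other genes did. Intervals lay wholly below 0 for 20 members and wholly above 0 for 13, which is 16.9% and 11.0%, beside 25.7% and 20.3% of the other genes. The SD of the members' folds was 0.20, and 0.16 with counting error taken off. For the other genes it was 0.27, and 0.25 with counting error taken off, so the members were spread less widely in this pair. The smaller spread was most marked among members of low count: with a mean of 100 to 200 counts the SD beyond counting error was 0.07 for 37 members against 0.24 for 1045 other genes, and with 400 counts or more it was 0.24 against 0.25.

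**Figure D3:**
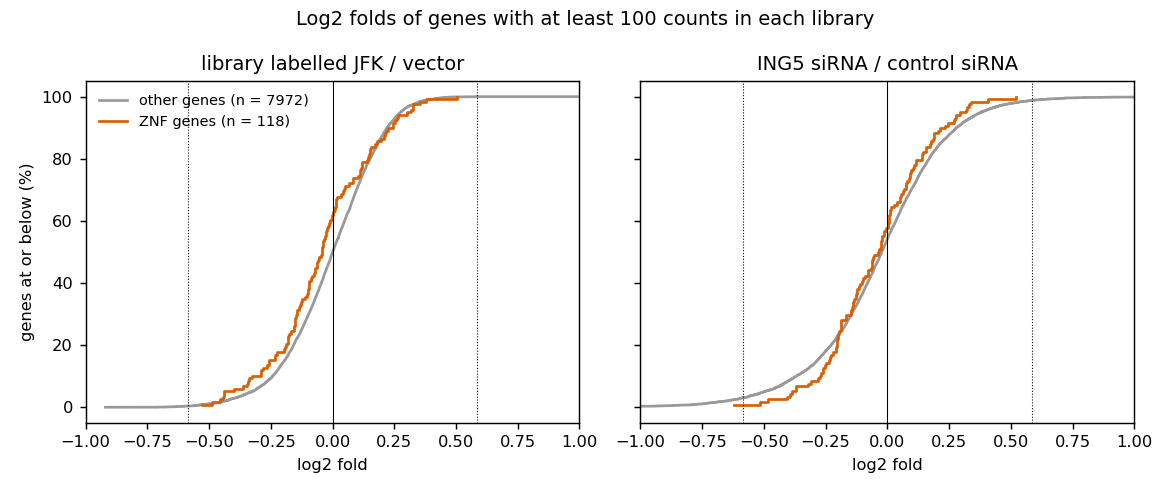
Share of genes in percent (vertical axis) at or below each log2 fold (horizontal axis) for 118 ZNF genes (orange) and 7972 other genes (grey), with dotted lines at 1.5-fold. Under ING5 siRNA the ZNF curve is steeper than that of other genes and 1 ZNF gene lies past 1.5-fold.

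ZNF326 (Entrez Gene 284695), a component of a complex that couples RNA polymerase II elongation to splicing, was the member past 1.5-fold, with 473 counts in ING5 siRNA against 736 in control siRNA (log2 fold −0.62, interval −0.79 to −0.45). In the vector pair it had 357 against 328 (0.15, interval −0.07 to 0.37). ZNF395 (Entrez Gene 55893), a hypoxia-responsive factor, had 581 against 840 under ING5 siRNA (−0.52, interval −0.67 to −0.36) and 389 against 392 in the vector pair. Both genes were low in the ING5 siRNA library and near their control in the library labelled JFK. ZNF195 had 1008 against 1423 (−0.48), ZNF532 419 against 561 (−0.40), ZNF33A 562 against 747 (−0.39) and ZNF783 137 against 181 (−0.38). For ZNF219, with 107 against 140, the interval was −0.75 to 0.00, and for ZNF362, with 114 against 149, it was −0.73 to −0.01. ZNF207, the member with the highest level in control siRNA, had 1910 against 2346 (−0.28, interval −0.37 to −0.19).

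ZNF367 (Entrez Gene 195828) was highest under ING5 siRNA, with 908 counts against 640 (0.52, interval 0.37 to 0.67). In the library labelled JFK it had 201 against 227 in vector (−0.15). The KRAB gene ZNF337 had 503 against 383 (0.41, interval 0.21 to 0.60), and 140 against 144 in the vector pair. These counts were high in the ING5 siRNA library and not in the library labelled JFK. ZNF217, an oncogene product that works with corepressors, had 1545 against 1253 (0.32, interval 0.21 to 0.43) and the nucleolar gene ZNF330 608 against 489 (0.33). ZNF232 (214 against 171), ZNF302 (542 against 447) and ZNF12 (430 against 358) had folds of 0.28 to 0.34 with intervals above 0, and that of ZNF74 (125 against 101) reached from −0.07 to 0.72.

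**Figure D4:**
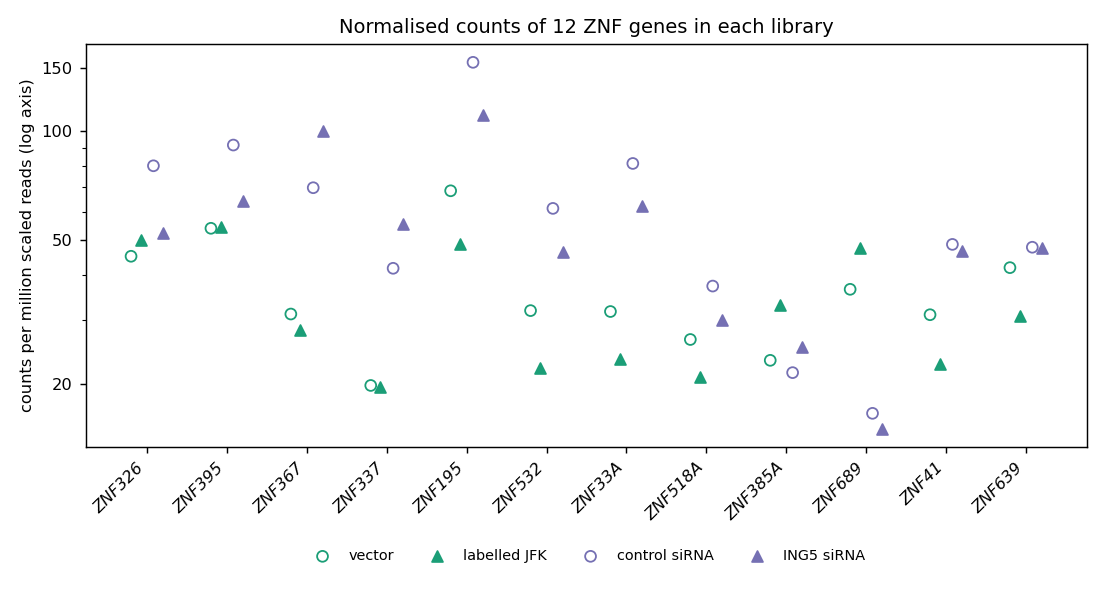
Counts scaled to library size (log axis) of 12 ZNF genes in vector (open green circles), the library labelled JFK (green triangles), control siRNA (open violet circles) and ING5 siRNA (violet triangles), 1 value each with no error. ZNF195, ZNF532, ZNF33A and ZNF518A stand below the control in both pairs, ZNF326 and ZNF395 only against control siRNA.

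Grouping by domain showed small differences. Members with a KRAB box had a median fold of −0.08 in the library labelled JFK, with 37 of 51 below 0, and members without one −0.02, with 36 of 67 below 0. In that pair the median GC content was 44.9% with and 46.1% without a KRAB box, and the order of the medians changed with GC content: −0.10 for 26 with and −0.15 for 30 without a KRAB box at or under 45%, −0.10 for 17 with and −0.00 for 17 without from 45 to 55%, and 0.12 for 8 with and 0.14 for 20 without above 55%. Under ING5 siRNA the medians were −0.08 with and −0.03 without a KRAB box, and 29 of 51 and 39 of 67 lay below 0. Of the 8 members in which a SCAN box was found, 7 lay above 0 under ING5 siRNA. Among the 7 were ZNF24 (1415 counts against 1188, 0.27) and ZNF232, while ZNF197 lay at −0.11. ZNF263, also of the 7, lay barely above 0 (294 counts against 297, 0.0014). Of the other genes at the minimum 54.0% lay below 0, and of 7 other genes in which a SCAN box was found, 5 lay below 0 (median −0.19). The short pattern used did not find the box in ZSCAN32, a gene named for it (0.23 under ING5 siRNA). The SCAN groups may therefore be incomplete, among members as well. Intervals lay wholly above 0 for 2 of the 8 members. In the library labelled JFK 4 of these 8 lay above 0. The 26 members with at most 4 fingers were spread most widely under ING5 siRNA, with an SD beyond counting error of 0.25, against 0.12 for the 42 with 5 to 9 and 0.14 for the 50 with 10 or more. ZNF326, ZNF395 and ZNF367 are of that first kind, with 1, 1 and 2 fingers found. Other genes showed no such order by finger number. Their SD beyond counting error was 0.25 with at most 4 fingers (7890 genes). It was 0.24 both with 5 to 9 (33 genes) and with 10 or more (23 genes).

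Neighbouring ZNF genes were read together, since many arose by local duplication. In the RefSeq gene order 51 of the 118 stood next to another ZNF gene, and 1 unbroken run held 4 or more members. This run has 8 ZNF genes, of which 5 were members, all with a KRAB box: ZNF398, ZNF282, ZNF783, ZNF777 and ZNF746, the last a repressor of PPARGC1A. Under ING5 siRNA all 5 lay below 0, at −0.08 for ZNF398 (257 counts against 274), −0.20 for ZNF282 (254 against 295), −0.38 for ZNF783, −0.17 for ZNF777 (147 against 167) and −0.23 for ZNF746 (118 against 140). Of the genes outside the ZNF members, 54.0% lay below 0 in this pair. Among the 5, ZNF783 alone had an interval wholly below 0 (−0.72 to −0.06). In the library labelled JFK they ran from −0.06 to 0.24. The 3 genes of the run under the minimum, ZNF786, ZNF425 and ZNF212, lay at −0.54, 0.29 and −0.20 under ING5 siRNA.

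The pairs have separate controls, so their folds were set side by side for each member. Both folds lay below 0 for 41 members (34.7%) and above 0 for 18 (15.3%), against 26.9% and 23.1% of other genes. Across the 118 members Spearman's rho between the folds was 0.04 (Pearson's r 0.09), as across the other genes (0.04 and 0.08). Intervals were wholly below 0 in both pairs for 4 members, ZNF195, ZNF532, ZNF33A and ZNF518A, which is 3.39%, beside 5.07% of the other genes. ZNF518A had 149 counts against 193 in the vector pair (−0.35, interval −0.67 to −0.03) and 273 against 342 in the siRNA pair (−0.31, interval −0.54 to −0.08). Intervals wholly above 0 in both were found for 0 members, beside 3.47% of the other genes. Of members above 0 in both pairs, ZNF385A (229 against 197 in the siRNA pair, 0.23, interval −0.05 to 0.52) and ZNF330 (264 against 224 in the vector pair, 0.26) had the largest sums.

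Intervals on opposite sides of 0 were found for 3 members, or 2.54%, beside 7.73% of the other genes. ZNF24, a SCAN protein, had 501 counts against 638 in the library labelled JFK (−0.32) and stood above control siRNA as given. ZNF146 had 437 against 523 (−0.23) and 1592 against 1414 (0.19). ZNF768 had 616 against 529 (0.24) and 296 against 356 (−0.25). ZNF24 and ZNF768 here, and ZNF197 and ZNF263 above, were chosen after their values were seen.

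**Figure D5:**
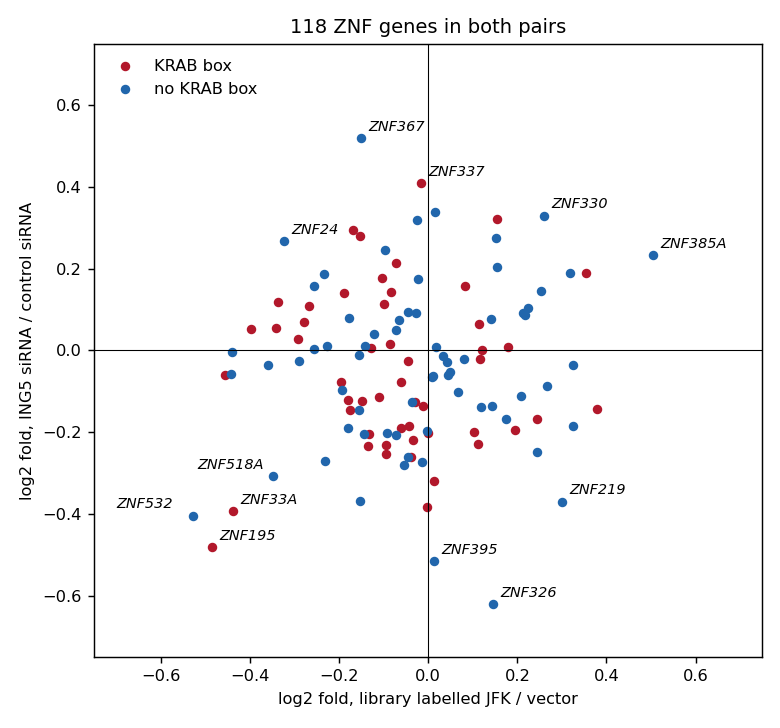
Log2 fold of each of the 118 ZNF genes in the library labelled JFK over vector (horizontal axis) and in ING5 siRNA over control siRNA (vertical axis), red with and blue without a KRAB box. The points form no diagonal, and ZNF195, ZNF532, ZNF33A and ZNF518A lie at the lower left.

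The corepressor machinery that KRAB proteins recruit had 28 of 29 genes sought at the minimum, and 0 were 1.5-fold apart in either pair. Over the genes outside the ZNF members, 0.401% were at least 1.5-fold lower and 0.0376% higher in the JFK pair, and 3.02% lower and 1.23% higher in the siRNA pair. In each pair 18 of the 28 lay below 0, with a median of −0.04, beside 49.8% and 54.0% of those genes. Intervals lay wholly below 0 for 3 and wholly above 0 for 4 of the 28 in the JFK pair. This is 10.7% and 14.3%, beside 13.6% and 17.3% of the genes outside the ZNF members. Under ING5 siRNA 6 lay below and 5 above, which is 21.4% and 17.9%, beside 25.7% and 20.3%. TRIM28, the scaffold, had 2766 counts against 2466 in the library labelled JFK (0.19, interval 0.11 to 0.27) and 1051 against 1202 in ING5 siRNA (−0.18, interval −0.30 to −0.06). SETDB1, the methyltransferase, had 452 against 453 and 771 against 785, folds of 0.02 and −0.01. In the library labelled JFK the folds ran from −0.35 for SUV39H2 to 0.26 for SUV39H1 and EHMT2, all histone methyltransferase genes. Under ING5 siRNA they ran from −0.20 for PPHLN1, of the HUSH silencing complex, to 0.23 for the HP1 gene CBX1.

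Other families of zinc finger genes at the same minimum gave further values for scale. Of 18 ZBTB genes, whose proteins join fingers to a BTB domain, the library labelled JFK had 1 at least 1.5-fold below its control and ING5 siRNA had 3. Of the genes outside the ZNF members, 0.401% and 3.02% were that much lower. ZBTB41 had 159 counts against 262 and 242 against 383 (−0.69 and −0.65), ZBTB4 659 against 1103 in the siRNA pair (−0.73) and ZBTB38 2221 against 3411 (−0.60). All 7 KLF genes lay below 0 under ING5 siRNA (median −0.20), from KLF6 at −0.60 to KLF11 at −0.06, and the 3 SP genes did too, with SP3 at −0.52, where 54.0% of the genes outside the ZNF members did. Intervals lay wholly below 0 there for 3 of the 7 KLF and 1 of the 3 SP genes, beside 25.7% of the genes outside the ZNF members. Against vector, 4 of the 7 KLF genes lay above 0 and the 3 SP genes below 0. The 5 ZFP, 4 ZSCAN and 4 ZKSCAN genes had no member 1.5-fold apart in either pair. Of 52 genes with zinc fingers of other folds, such as ZDHHC and ZC3H genes, 0 were 1.5-fold apart in either pair. Whether any family differs from the ZNF genes was not tested.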

How the data were processed

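Bulk RNA-seq of 4 libraries was analysed from deposited gene tables. The submitters' processing notes name STAR, fastp, FastQC and DESeq2, and the builds hg19 and GRCh37. Versions and the role of each tool: not given in the sources used here. Per the file headers, expected counts and FPKM were deposited for the vector pair, and counts and RPKM for the siRNA pair. Of 17962 Entrez identifiers, 17845 matched RefSeq symbols. A pair of identifiers listed more than once was left out, as was a row named by transcript.

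Counts were scaled by TMM within each pair (trims 0.3 and 0.05), 0.5 was added and log2 ratios were taken, with scipy 1.17.1, pandas 2.3.3 and numpy 2.4.6 under Python 3.11.15. For intervals, expected counts were rounded. The threshold was 1.5-fold. No p-value is given, since each group has 1 library. The log2 fold script was tested on simulated data. GC content, lengths and domains come from the longest coding transcript in GENCODE release 29 (GRCh38), matched for 118 members and 7946 other genes. Domains were to be read from RefSeq proteins, which were not used here. The KRAB profile was built with HMMER 3.4 from 176 windows (E-value at most 0.001). Fingers were counted by cysteine and histidine spacing. RefSeq upstream windows matched 103 members. Named genes were the 8 highest and 8 lowest members per pair, the 5 highest by level, those at the count minimum, the 5 lowest and 5 highest by summed folds of one sign, members of runs of neighbours, and the ends of each list. Some genes that this covers are not reported here. Members and lists were chosen with earlier results of these data known.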

Additional observations from a re-analysis of the deposited data

How the results depend on the processing

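Under 12 alternative settings (scaling, unit, added constant, count minimum, whole counts, count and RPKM agreement, and the choice of comparison genes, the GC bands having been added after seeing the data), the median of ZNF genes minus that of other genes stayed below 0 in the library labelled JFK (−0.07 to −0.02). Under ING5 siRNA it ran from −0.02 to 0.02 and turned to 0.016 at a minimum of 200 counts, with 52 members; the cause was not tested. The count of members at least 1.5-fold apart depends on the count minimum. At 50 counts (198 members) 4 were lower under ING5 siRNA and 1 in the JFK pair. With no minimum (416 members), where counts are lowest, 39 were lower and 15 higher in the JFK pair, and 28 lower and 25 higher under ING5 siRNA. The shares of other genes past 1.5-fold at these minimums were not computed, so these counts do not set ZNF genes apart from other genes. Under the other settings the counts were as given. Scaling and unit moved the median of all genes by −0.04 to 0.01, and at most 8 members changed sign with it. No paired analysis was possible because each group holds 1 library.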

Other observations

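Levels in the control libraries, taken from tables that were normalised separately and in different units (FPKM and RPKM), differed more than either pair did. For the 118 ZNF genes the log2 ratio of control siRNA to vector had a median of 0.09, with a 10th percentile of −1.05 and a 90th of 1.08, and for other genes the median was −0.05. ZNF292 had 2.91 FPKM in vector and 9.71 RPKM in control siRNA, ZNF33A 5.18 and 13.2, and ZNF638 12.95 and 32.2. In the other direction ZNF787 had 23.1 FPKM and 6.71 RPKM, ZNF276 11.1 and 3.90, and ZNF646 7.90 and 2.95. These genes were chosen after their values were seen. Across the members Spearman's rho between this ratio and transcript GC content was −0.66, and across other genes −0.64, both as descriptions of a pair of libraries.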
